A study of Mus musculus with 6 samples.

Results

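The 8 genes described here encode transcription factors of the granulocyte and monocyte fates: PU.1 (gene Spi1), the C/EBP proteins α, β, δ, ε and γ (Cebpa, Cebpb, Cebpd, Cebpe and Cebpg), Gfi1 and Klf4. They were chosen by symbol, with earlier results of these data known. All 8 were found among the 23420 genes of the count table, Spi1 under its older symbol Sfpi1. All 8 passed the filter on low counts. Expression was measured by total RNA sequencing of bone marrow LSK cells, which lack lineage antigens and carry Sca-1 and c-Kit, and among which stem cells and multipotent progenitors are found. There were 3 bcat(ex3)osb mice, whose osteoblasts had permanently active β-catenin signalling (mutant mice below), and 3 wild-type (WT) littermates, with 1 library per mouse. No Cre driver, age, sex or treatment of these animals is stated in the labels. The LSK cells themselves carry no label of an altered allele, so the comparison asks how the fate factors of blood progenitors relate to signalling in a bone cell of their niche.

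PU.1 is an ETS-domain protein that opens myeloid and lymphoid enhancers, and its amount helps to set the choice between macrophage, granulocyte and B cell fates. C/EBP proteins are basic leucine zipper factors that bind DNA as dimers. C/EBPα takes progenitors into the granulocyte-monocyte path, C/EBPβ serves emergency granulopoiesis, C/EBPδ and C/EBPε act in granulocyte maturation, and C/EBPγ lacks a strong activation domain and can dampen its partners. Gfi1 is a zinc finger repressor that favours neutrophils over monocytes, and Klf4 is a zinc finger factor of monocyte differentiation.

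Libraries held between 15431235 and 19956774 counts. Both LSK sort markers were present in every library: Kit, the stem cell factor receptor, lay between 322.9 and 1002 CPM (counts scaled to a common library size), and Ly6a, which encodes Sca-1, between 65.9 and 161.6 CPM. Of 10 LSK marker genes, 9 had a negative log2 fold change (mutant over WT) with a median of -0.42, and 2, Ly6a and Procr, lay below WT without overlap (7.67% of all tested genes). Procr, a stem cell surface receptor, had -0.63 ± 0.25. Ly6a itself was without overlap between genotypes, at 81.5, 65.9 and 75.7 CPM in mutants 1, 2 and 3 against 148, 162 and 156 CPM in the WT mice, with an edgeR adjusted p of 0.312 and a DESeq2 adjusted p of 1.3e-05. The library of mutant mouse 2 stood apart on the first principal component (50.8% of the variance), so values without it are given below. Y-linked transcripts summed to 3715 and 2841 counts in mutant mice 1 and 2 and to between 8 and 13 in the other 4 mice, and Xist showed the reverse, so mutant mice 1 and 2 were read as male and the rest as female. Genotype was tested with edgeR's quasi-likelihood test over 12653 genes, with Benjamini-Hochberg adjustment and a threshold of 0.05. Over all of these, 0 genes were higher (0%) and 0 lower (0%). Without adjustment, 434 genes (3.43%) had a p under 0.05 with a higher mutant mean and 396 (3.13%) with a lower one. DESeq2 called 101 higher (0.798%) and 68 lower (0.537%). In bulk RNA, a larger share of cells that carry a transcript and more transcript per cell cannot be told apart.

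Of the 8 factors, 6 lay in all 3 mutant mice above all 3 WT mice: Cebpa, Cebpb, Cebpd, Cebpe, Spi1 and Gfi1. Of all tested genes, 6.89% did so and 7.67% lay below without overlap. The means of these 6 factors were between 1.40-fold and 6.08-fold higher in the mutant mice, with Cebpe, Cebpd and Cebpa furthest apart. Cebpg and Klf4 overlapped between genotypes. The log2 fold change (mutant over WT) was positive for 7 of the 8, beside 50.3% of tested genes, and above 1 for 4 of the 8, beside 3.41%. These 4 were Cebpa, Cebpd, Cebpe and Klf4, and Klf4 had only 8 to 35 counts per library and overlapped. The median over the 8 was 1.04, beside 0.00 over all tested genes. It lay between the values of Cebpb (0.92) and Klf4 (1.16), so it rests in part on Klf4. By edgeR 0 of the 8 passed, and 5 were higher with an unadjusted p below 0.05 (3.43% of tested genes): Cebpa, Cebpb, Cebpd, Cebpe and Gfi1. DESeq2 called 3 of the 8 higher (0.798%): Cebpa, Cebpd and Cebpe. With 3 mice per group the smallest two-sided exact permutation p is 0.10. A gene reaches it whenever its groups do not overlap, so for these 6 factors it only repeats the separation.

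**Figure D1:**
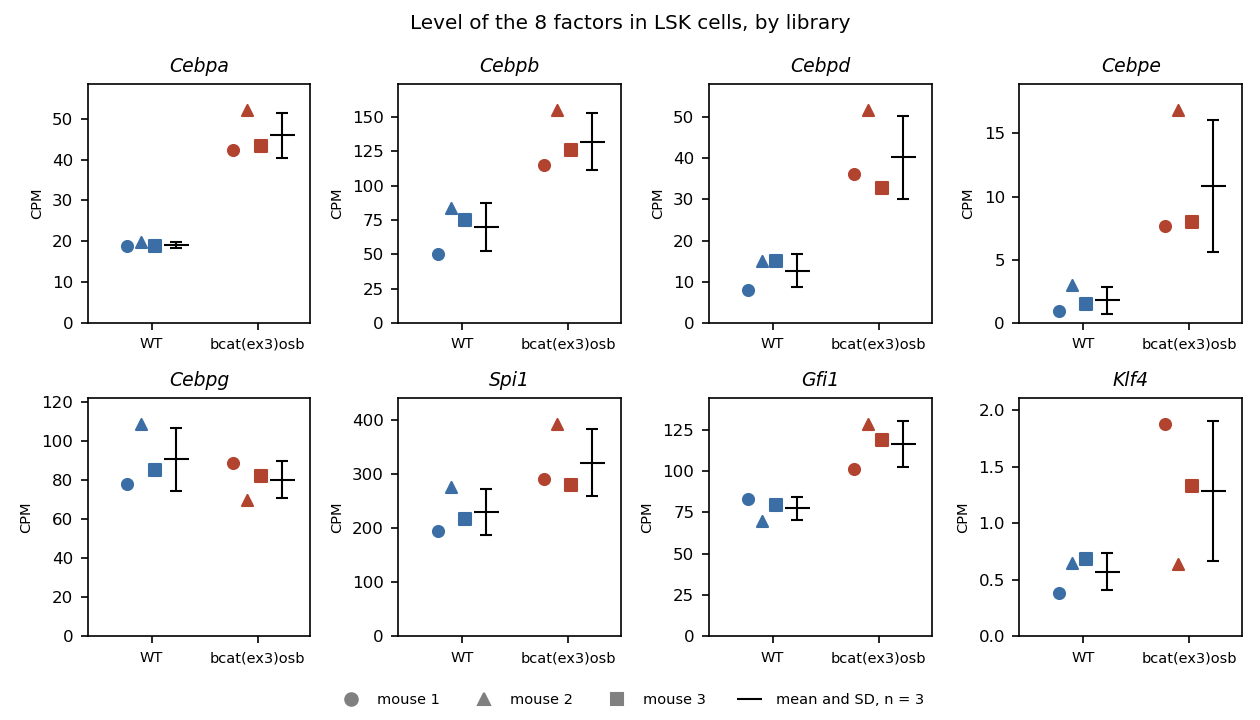
CPM of each factor (vertical axes, linear, from 0) in the 3 WT and 3 bcat(ex3)osb libraries, 1 point per mouse, with the group mean and SD beside the points. The genotypes are separated in 6 panels, and overlap for Cebpg and Klf4.

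The C/EBP genes are described first. Cebpa (chromosome 7, 35119293 to 35121928, plus strand, GRCm38.p6) was at 42.3, 52.1 and 43.3 CPM in mutants 1, 2 and 3, beside 18.7, 19.9 and 18.7 CPM in WT mice 1, 2 and 3. Both groups were tight, and the lowest mutant value was above 40 CPM while no WT value exceeded 20. Its log2 fold change was 1.26 ± 0.20 (SE), with an edgeR adjusted p of 0.292 and a rank of 10 by p among the 12653 genes. By DESeq2 the adjusted p was 9.37e-06. Without mutant mouse 2 the log2 fold change was 1.16 ± 0.20.

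Cebpb (chromosome 2, 167688915 to 167690432, plus strand) is a single-exon gene. It was at 115, 155 and 126 CPM in mutants 1, 2 and 3, beside 50.4, 83.8 and 75.2 CPM in the WT mice. The WT values spread more than those of Cebpa, and the smallest gap between genotypes was from 83.8 to 115 CPM. Its log2 fold change was 0.92 ± 0.24, with an edgeR adjusted p of 0.485 and a DESeq2 adjusted p of 0.0524. Tmem189, which overlaps Cebpb on the other strand and is counted separately, is in the table, and how reads in the overlap were assigned is not stated.

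Cebpd (chromosome 16, 15887286 to 15889545, plus strand) was at 36.2, 51.7 and 32.8 CPM in the mutants, beside 8.10, 15.1 and 14.98 CPM in the WT mice. The lowest mutant value was more than 15 CPM above the highest WT value. On the log2 scale the fold change was 1.66 ± 0.32, with an edgeR adjusted p of 0.329 and a DESeq2 adjusted p of 0.000602. Without mutant mouse 2 it was 1.44 ± 0.31.

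Cebpe (chromosome 14, 54710363 to 54712174, minus strand) had 143, 261 and 144 counts in mutants 1, 2 and 3, beside 19, 46 and 30 counts in WT mice 1, 2 and 3. These counts were 7.70, 16.8 and 7.98 CPM against 0.921, 2.99 and 1.46 CPM. The gene was thus near the bottom of the measured range in WT LSK cells, at percentile 15.3 of tested genes by mean FPKM (counts scaled by gene length and library total), and at percentile 42.3 in mutant cells. The log2 fold change of 2.60 ± 0.57 was the largest of the 8, with an edgeR adjusted p of 0.333 and a DESeq2 adjusted p of 0.00140. Mutant mouse 2 was the highest library, and without it the log2 fold change was 2.14 ± 0.54.

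Cebpg lies on chromosome 7 from 35046422 to 35056566 on the minus strand, head to head with Cebpa and 62726 bases from it. It was at 88.8, 69.8 and 81.8 CPM in the mutants, beside 77.8, 109 and 84.8 CPM in the WT mice. The ranges overlapped, mutant mouse 2 was the lowest of the 6 libraries and WT mouse 2 the highest. Its log2 fold change was -0.17 ± 0.20, with an edgeR adjusted p of 0.915. The per-length ratio of Cebpa to Cebpg was 0.848, 1.33 and 0.943 in mutants 1, 2 and 3, beside 0.429, 0.326 and 0.393 in WT mice.

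The RefSeq promoter windows of Cebpa, Cebpb and Cebpg (250 bases before to 50 after the start, GRCm38.p6) are shown because the first 2 genes were higher in mutant mice without overlap and the third was not. Cebpa is at chr7:35119043-35119342 on the plus strand, Cebpb at chr2:167688665-167688964 on the plus strand, and Cebpg at chr7:35056517-35056816 on the minus strand. Capitals mark the C/EBP core, TTGCG on either strand, which can share bases with the longer C/EBP motif TTGCNNAA.
Cebpa: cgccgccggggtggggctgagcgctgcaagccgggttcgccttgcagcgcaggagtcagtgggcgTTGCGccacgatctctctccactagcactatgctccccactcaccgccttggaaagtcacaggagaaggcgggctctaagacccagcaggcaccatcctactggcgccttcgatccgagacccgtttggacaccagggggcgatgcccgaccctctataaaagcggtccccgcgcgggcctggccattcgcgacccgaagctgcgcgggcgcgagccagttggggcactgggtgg
Cebpb: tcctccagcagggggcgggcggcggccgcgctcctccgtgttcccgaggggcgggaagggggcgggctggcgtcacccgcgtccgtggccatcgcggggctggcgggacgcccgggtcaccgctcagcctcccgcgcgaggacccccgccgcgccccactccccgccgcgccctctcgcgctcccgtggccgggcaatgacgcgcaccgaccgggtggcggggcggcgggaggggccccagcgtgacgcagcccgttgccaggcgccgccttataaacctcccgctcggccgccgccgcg
Cebpg: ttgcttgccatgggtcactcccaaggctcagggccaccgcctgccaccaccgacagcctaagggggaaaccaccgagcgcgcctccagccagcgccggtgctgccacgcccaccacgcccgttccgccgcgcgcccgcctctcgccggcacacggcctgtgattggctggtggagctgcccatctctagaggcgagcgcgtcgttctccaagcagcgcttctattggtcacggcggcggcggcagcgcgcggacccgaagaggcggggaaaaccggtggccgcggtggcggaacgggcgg
The Cebpa window held 1 match to this core, 185 bases before the start, and the windows of Cebpb and Cebpg held 0. Of all 32851 windows of that length, 17.4% held a match. The longer C/EBP motif TTGCNNAA (10.8% of all windows) and the PU.1 core GAGGAA (28.3%) had 0 matches in these 3 windows on either strand. The KLF core CACCC, present in 57.5% of all windows on either strand, had 2 matches in the Cebpa window, 2 in the Cebpb window and 0 in the Cebpg window. The 3 windows were rich in G and C, at 67.3%, 80.7% and 71.7%, beside a median of 52.7% over all windows. Windows were matched for 5 of the 8 factors: Gfi1 and Klf4 were the others with an entry, and Spi1, Cebpd and Cebpe had none. Of the 2 Gfi1 windows, window 1 held 1 match to TTGCNNAA, 143 bases before the start, and 2 to the KLF core. Window 2 of Gfi1 and the Klf4 window held 0 matches to any of these motifs. A relation between motifs and levels was not tested.

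The make-up of the C/EBP pool was followed within each library, as the share of each gene in the summed FPKM of Cebpa, Cebpb, Cebpd, Cebpe, Cebpg and Ddit3, which encodes the stress-induced family member CHOP. The pool itself was 148.5, 173 and 163.5 FPKM in mutants 1, 2 and 3, beside 75.3, 119 and 98.6 FPKM in WT mice. Cebpg took 10.4% ± 2.5 of the pool in mutant and 20.5% ± 2.37 in WT mice (SD, n = 3 each), without overlap. Cebpd took 10.6% ± 1.41 and 5.84% ± 0.981, Cebpe 5.10% ± 1.72 and 1.43% ± 0.519, and Cebpa 10.4% ± 0.252 and 7.89% ± 1.86. Ddit3 took 11.0% ± 1.97 in mutant and 15.7% ± 3.76 in WT mice, although its CPM overlapped between genotypes, and the difference of -4.78 percentage points was -2.61 without WT mouse 2. Cebpb held the largest share in each library, 52.5% ± 1.19 in mutant and 48.6% ± 3.15 in WT mice. Over the 6 shares, the two-sided exact permutation p was 0.10 (adjusted 0.12) for each gene except Cebpb, which had 0.20. The value 0.10 is the smallest possible and follows from separation. The 6 shares of a library are parts of 1 sum, so they are not separate tests, and a larger share of some genes lowers the others. Cebpg, like Ddit3, overlapped between genotypes in CPM.

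**Figure D2:**
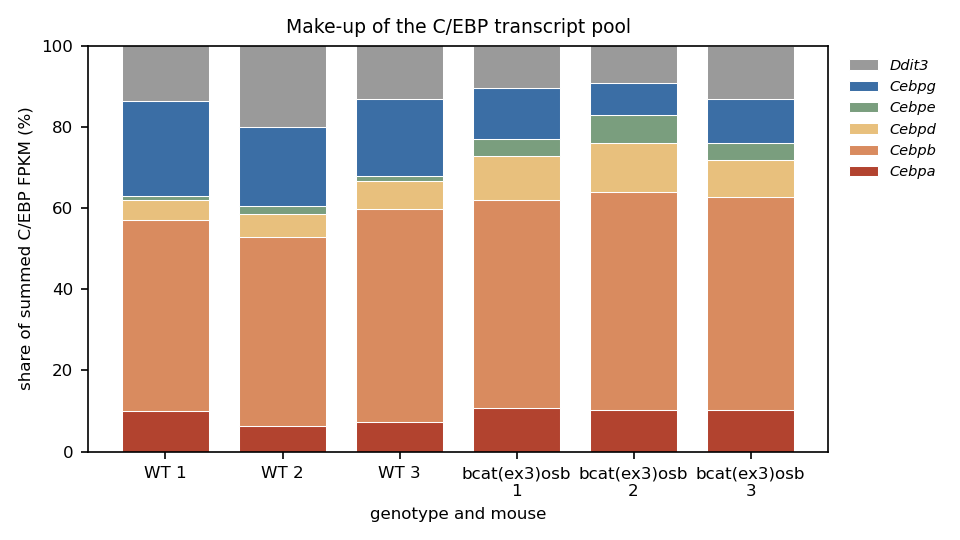
Share of each C/EBP gene in the summed FPKM of the 6 genes (vertical axis, percent), 1 bar per library. Cebpg lies between 18.9% and 23.2% in WT bars and between 7.73% and 12.7% in bcat(ex3)osb bars, and Cebpb is the largest block throughout.

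Spi1 (chromosome 2, 91082374 to 91115759, plus strand) was the most abundant of the 8 per length, with 217, 266 and 215 FPKM in mutants 1, 2 and 3, beside 154, 207 and 167 FPKM in WT mice. It stood at percentile 97.0 of tested genes by mean FPKM in mutant and 96.1 in WT mice. In CPM it was at 291, 393 and 280 in the mutants, beside 194, 277 and 216 in the WT mice, so mutant mouse 3 and WT mouse 2 were nearly level. On the log2 scale the fold change was 0.49 ± 0.22, with an edgeR adjusted p of 0.774 and a DESeq2 adjusted p of 0.576. Without mutant mouse 2 it was 0.32 ± 0.21, and with sex as a covariate 0.29 ± 0.33. The ratio of Cebpa to Spi1 per length, a within-library measure, was 0.0734, 0.0669 and 0.0782 in the mutants, beside 0.0487, 0.0363 and 0.0437 in WT mice, without overlap.

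Gfi1 (chromosome 5, 107716655 to 107725805, minus strand) was at 101.4, 129 and 119 CPM in the mutants, beside 83.1, 69.8 and 79.4 CPM in the WT mice. All mutant values were above 100 CPM and all WT values below 84 CPM. Its log2 fold change was 0.59 ± 0.18, with an edgeR adjusted p of 0.562 and a DESeq2 adjusted p of 0.133. Unlike the C/EBP genes and Spi1, its WT mouse 2 value was the lowest of the WT mice.

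Klf4 (chromosome 4, 55527137 to 55532475, minus strand) was at the edge of detection, with 35, 10 and 24 counts in the mutants, beside 8, 10 and 14 counts in the WT mice. The 95% counting interval of the 10 counts in mutant mouse 2 was 4.8 to 18.4, and that of the 35 counts in mutant mouse 1 was 24.4 to 48.7. These intervals did not overlap, so the 2 mice differed by more than counting error. Mutant mice 1 and 3 exceeded the WT mice and mutant mouse 2 lay among them. On the log2 scale the fold change was 1.16 ± 0.68, with an edgeR adjusted p of 0.842, and a difference of this size was not resolved at this depth. It was 1.48 ± 0.66 without mutant mouse 2 and 0.24 on log2(FPKM + 1), a scale that compresses low values.

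By level per length, the order in WT mice was Spi1, Cebpb, Gfi1, Cebpg, Cebpa, Cebpd, Cebpe and Klf4, and the ranges of Gfi1 and Cebpg overlapped while the other neighbours did not. In mutant mice the order was Spi1, Cebpb, Gfi1, Cebpd, Cebpa, Cebpg, Cebpe and Klf4. There the ranges of Cebpd and Cebpa, and of Cebpa and Cebpg, overlapped. Cebpg thus stood above Cebpa and Cebpd in each WT mouse, and also in mutant mice 1 and 3. In mutant mouse 2 it was at 13.4 FPKM, below Cebpa at 17.8 and Cebpd at 20.6. Its place below both in the mutant order, which ranks means, therefore rests on that 1 library.

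**Figure D3:**
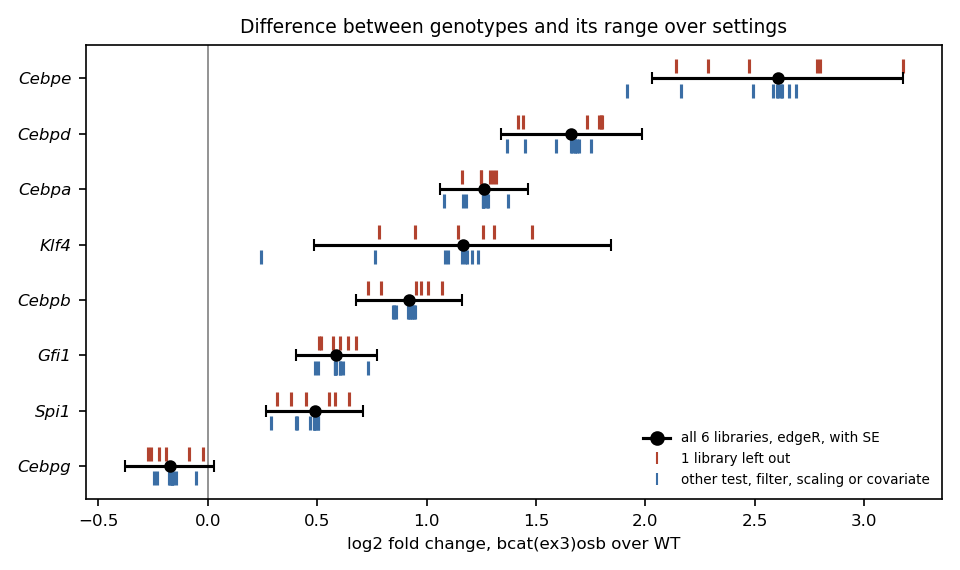
Log2 fold change of each factor, bcat(ex3)osb over WT (horizontal axis), with its SE from edgeR on all 6 libraries (black), the values with 1 library left out (red ticks) and under the other settings (blue ticks). Cebpe is the furthest from 0 at 2.60 and Cebpg lies at -0.17, and no setting shown moves a factor across 0.

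Genes around the factors were described from lists written from general knowledge, by counts and medians. The lists were written with earlier results of these data known, so the shares over all genes are a background and not a test. Granulocyte genes bound by C/EBP factors had 11 of 17 tested members with a positive log2 fold change (50.3% of all tested genes) and a median of 0.92. In 6 of the 17 all mutant values exceeded all WT values (6.89% of all genes), and in 1, Lyz2, all were below (7.67%). By edgeR 0 passed in either direction, and with an unadjusted p under 0.05 there were 8 higher (3.43% of all genes) and 1 lower (3.13%). DESeq2 called 5 higher (0.798%) and 0 lower (0.537%): Mpo, Elane, Prtn3, Ctsg and Ms4a3. Elane, neutrophil elastase of the primary granules, was at 615, 1421 and 643 CPM in the mutants, beside 54.9, 223 and 142 CPM in WT mice, with a log2 fold change of 2.67 ± 0.55. Mpo, myeloperoxidase, was at 6203, 6471 and 4545 CPM in the mutants, beside 1040, 2260 and 2597 CPM in WT mice. Ms4a3, a marker of granulocyte-monocyte progenitors, had a log2 fold change of 3.59 ± 0.76 and Prtn3, proteinase 3, one of 1.90 ± 0.50.

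The genes of later granules, chosen for display after their values were seen, were Ltf, Ngp, Camp, Lcn2, Mmp8, Mmp9 and Cd177. All 7 overlapped between genotypes, and their log2 fold changes had either sign. Ltf, which encodes lactoferrin of secondary granules and is a C/EBPε target, was at 1.02, 1.87 and 10.4 CPM in the mutants, beside 34.1, 2.02 and 0.632 CPM in WT mice. Lcn2, lipocalin 2 of the same granules, was at 3.23, 27.0 and 9.09 CPM in the mutants, beside 4.995, 0.715 and 0.195 CPM in WT mice. The log2 fold changes were -1.46 ± 1.38 for Ltf and 2.72 ± 1.14 for Lcn2, with an unadjusted edgeR p of 0.0447 for Lcn2. Ngp had -1.61 ± 1.11, Cd177 -0.20 ± 1.81, Mmp9 -0.08 ± 1.35, Camp 0.26 ± 1.26 and Mmp8 1.08 ± 0.76. WT mouse 1 was the highest WT library for each of the 7, while the same mouse had the lowest Cebpe value, 0.921 CPM. Lyz2, lysozyme of granulocytes and macrophages, was below in all 3 mutant mice, at 282, 225 and 244 CPM against 355, 392 and 316.5 CPM. Csf3r, the G-CSF receptor, had a log2 fold change of -0.66 ± 0.32. Il6ra had 0.86 ± 0.24 and lay above WT without overlap. S100a8 and S100a9 had 1.94 ± 0.63 and 0.92 ± 0.75, both with overlap. Without WT mouse 1 the list median was 2.03.

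Myeloid genes bound by PU.1 had a median of 0.05 over 13 tested genes, 8 of them positive (50.3% of all genes). The mutant mice lay above without overlap in 2, Fcgr3 and Tyrobp (6.89%), and below in 1, Fcgr1 (7.67%). By edgeR 0 passed after adjustment and 2 were higher at an unadjusted p below 0.05 (3.43%). DESeq2 called 1 higher, Fcgr3 (0.798%), and 0 lower. Fcgr3, an IgG receptor, was at 28.8, 48.9 and 30.9 CPM in the mutants, beside 6.35, 12.8 and 10.8 CPM in WT mice. Tyrobp, an adaptor of activating receptors, had a log2 fold change of 0.99 ± 0.36 and Cybb, a subunit of the phagocyte oxidase, one of 0.62 ± 0.33. Fcgr1, the high-affinity IgG receptor, was at or below 1.37 CPM in every library.

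Monocyte and dendritic fate factors had 4 of 8 tested members positive (50.3% of all genes), with a median of 0.31. In 2 of them, Id2 and Irf8, the mutants were separated above WT (6.89%). By edgeR 0 passed, and 3 were higher at an unadjusted p below 0.05 (3.43%). Id2, a helix-loop-helix inhibitor, had a log2 fold change of 2.04 ± 0.31 and was the 1 member called higher by DESeq2 (0.798% of all genes), with an adjusted p of 2.01e-06. Irf8, which directs monocyte and dendritic fates with PU.1, was at 536, 188 and 266 CPM in the mutants, beside 92.4, 144 and 164 CPM in WT mice. Egr1, which antagonises Gfi1 in the monocyte choice, had 1.84 ± 0.57, with overlap of the groups, and Nr4a1 had 0.85 ± 0.45.

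The relatives and partners of the factors, apart from the KLF family, had medians near 0. By edgeR 0 of these genes passed. At an unadjusted p below 0.05 (3.43% of all genes higher, 3.13% lower) there were 1 higher and 1 lower among ETS factors, 1 and 1 among C/EBP partners, and 0 and 0 in the Gfi1 group. ETS factors and partners of PU.1 had a median of -0.09 over 13 genes, with 0 above (6.89%) and 1 below (7.67%) without overlap. That gene was Spib, the closest relative of PU.1, at 2.53, 0 and 0.333 CPM in the mutants, beside 10.5, 5.33 and 11.0 CPM in WT mice. Jun, a partner of PU.1, had a log2 fold change of 1.56 ± 0.49, Ets1 -0.96 ± 0.46 and Erg -0.25 ± 0.20. C/EBP partners and modifiers had a median of -0.04 over 12 genes, with 0 separated in either direction. Trib2, a pseudokinase that promotes degradation of C/EBPα, had -1.55 ± 0.61, Nfil3 0.70 ± 0.30, Tef -0.45 ± 0.27 and Atf4 0.46 ± 0.27. The paralog and co-repressors of Gfi1 had a median of -0.04 over 7 genes. Among them Gfi1b had 0.63 ± 0.33, Zbtb17 0.12 ± 0.19, and the deacetylase genes Hdac1 and Hdac2 had -0.15 ± 0.16 and -0.15 ± 0.17. In these 2 of the 7 the mutants lay below WT without overlap (7.67%).

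The other KLF genes had 9 of 12 tested members positive (50.3% of all genes) and a median of 0.38. In 5 of the 12 (6.89% of all genes) all mutant values exceeded all WT values: Klf2, Klf9, Klf11, Klf13 and Klf16. Klf9, a glucocorticoid-responsive factor, was at 41.3, 51.5 and 27.3 CPM in the mutants, beside 9.07, 11.6 and 6.91 CPM in WT mice, and was the 1 member called higher by DESeq2 (0.798%), with an adjusted p of 4.05e-06. By edgeR 0 of the 12 passed, and 3 were higher at an unadjusted p below 0.05 (3.43%). Klf13, Klf11 and Klf2 had log2 fold changes of 1.05 ± 0.32, 0.72 ± 0.24 and 0.70 ± 0.34.

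Factors of competing fates had a median of 0.05 over 13 tested genes, with 0 above and 0 below without overlap and 0 called by edgeR or DESeq2, and 0 with an unadjusted edgeR p below 0.05. Foxo1, which acts in early B cells, had a log2 fold change of -0.68 ± 0.30. Gata2 and Tal1, factors of stem cells and of the erythroid and mast lineages, had 0.50 ± 0.27 and 0.38 ± 0.25. Pax5, the B cell commitment factor, had -1.96 ± 1.31 at a level of at most 3.65 CPM. Ebf1, another B cell factor, was at 40.9, 0.0645 and 0.665 CPM in mutants 1, 2 and 3, beside 33.9, 36.6 and 58.9 CPM in WT mice. Its log2 fold change was -1.63 ± 1.43, and DESeq2 gave it no adjusted p, so it was not judged there. Of the 13 genes, 8 had a positive log2 fold change (50.3% of all genes) and 5 a negative one.

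**Figure D4:**
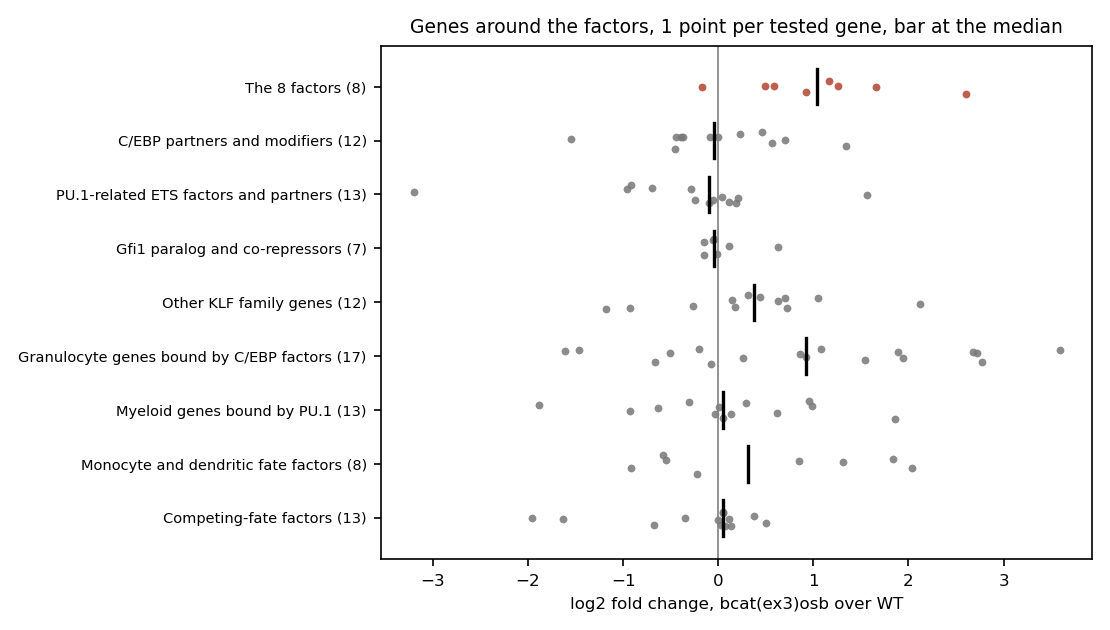
Log2 fold change, bcat(ex3)osb over WT (horizontal axis), of the 8 factors (red) and of the tested genes of each list (grey), with the number of genes in brackets and a bar at each median. Of the 8 factors 7 lie above 0, with a median of 1.04, and the granulocyte genes spread on both sides of 0 around 0.92.

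Summed markers of several other cell types also differed between genotypes, and their part in these results was not tested. Of all tested genes, 6.89% lay above WT without overlap and 7.67% below, beside the counts given here. Monocyte markers summed to between 269.5 and 525 CPM in mutant and between 102 and 154 CPM in WT mice, with 4 of 7 tested genes above without overlap. Mast cell and basophil markers summed to 120 to 340 CPM in mutant and 23.2 to 82.9 CPM in WT mice, with 2 of 8 above. Megakaryocyte markers summed to 62.0 to 162 CPM in mutant and 43.7 to 61.1 CPM in WT mice, with 1 of 4 above, Itga2b, which DESeq2 called higher (adjusted p = 0.00193). Macrophage markers were lower in sum, at 15.03 to 64.0 CPM in mutant and 71.7 to 103 CPM in WT mice, with 6 of 9 below without overlap. B cell markers summed to 74.3 to 602.5 CPM in mutant and 620 to 1090 CPM in WT mice, with 4 of 10 below. DESeq2 also called 4 monocyte markers higher: Ccr2, Ly6c2, F13a1 and Ms4a6c. Of the mast cell and basophil markers it called 2 higher, Cpa3 and Hdc, and of the macrophage markers 1 lower, Cd5l. It called 0 B cell markers, but gave no adjusted p for Ebf1, Vpreb1 and Igll1. Over all tested genes it called 0.798% higher and 0.537% lower.

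The sums of the other marker lists overlapped between genotypes, though single genes within them did not. Of 10 mature neutrophil markers, 1 lay above without overlap, Cxcr2 (6.89% of all genes), and 1 below, Retnlg (7.67%). Retnlg was at 0, 0.0645 and 0.111 CPM in the mutants, beside 4.995, 2.67 and 1.90 CPM in WT mice (DESeq2 adjusted p = 0.00016). Of 3 tested osteoblast and stroma markers, 2 lay below, Col1a2 and Alpl, and DESeq2 called Alpl lower (adjusted p = 0.0485). Mature neutrophil markers summed to 51.0 to 150 CPM in mutant and 21.2 to 165 CPM in WT mice, T and NK cell markers to 240 to 349 and 174 to 329 CPM, and osteoblast and stroma markers to 0.839 to 14.2 and 8.45 to 29.5 CPM. Erythroid markers summed to 6.19 to 37.7 CPM in mutant and 8.42 to 142 CPM in WT mice. Most of the highest erythroid sum was the β-globin gene Hbb-bs, at 133.9 CPM in WT mouse 1, while the α-globin genes Hba-a1 and Hba-a2 were listed at 0 counts in each library.

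With sex as a covariate, where the genotype difference rests on mutant mouse 3 against the 3 WT mice, the log2 fold changes of Cebpa, Cebpb, Cebpd and Cebpe were 1.18 ± 0.29, 0.85 ± 0.36, 1.37 ± 0.43 and 2.16 ± 0.72. Without mutant mouse 2, the 6 separated factors were still separated, and Klf4 was too, since its lowest mutant value was then left out. Separation is easier to reach with 2 against 3 mice than with 3 against 3. The share of all genes separated in that setting was not counted.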

How the data were processed

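RNA of LSK cells from 6 mice was sequenced after TruSeq Stranded Total RNA library preparation, per the labels' protocols. The tools named in the submitters' processing notes are featureCounts 1.5.0-p3, STAR 2.5.2b and bcl2fastq 2.17, with build mm10. Annotation, strand setting and multi-mapping reads: not given in the sources used here. Unnormalized whole-number counts per gene and library were deposited by the authors. The authors also deposited FPKM, which equalled counts scaled by gene length and library total within 0.005.

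The 8 factors and all gene lists were chosen with earlier results of these data known. Counts were filtered with edgeR's filterByExpr (minimum count 10, minimum total 15), leaving 12653 of 23420 genes, scaled by TMM and tested with edgeR 4.0.16 in R 4.3.3 (quasi-likelihood F test, two-sided, genotype as the only term). SE was derived from the F statistic. CPM uses the TMM-scaled library size. Levels between genes were compared by FPKM. The procedure was tested on simulated data. Alternatives used limma 3.58.1, DESeq2 1.42.0, RLE scaling, other filters, log2(FPKM + 1) and log2(FPKM + 0.1), a replicate block, sex, removal of the trend with gene length, and each library left out. P-values measure the spread between 3 mice per group. Counting intervals are exact Poisson intervals and cover counting error only, since reads lacked molecular identifiers.

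The genes named were the 8 factors, up to 4 tested genes per list with the smallest unadjusted p, and the 3 genes whose log2 CPM had the highest Pearson r with each factor, of which those of Cebpa, Cebpb and Cebpe are given. Genes named outside this rule, such as Ltf, Ngp, Camp, Lcn2, Mmp8, Mmp9, Cd177, Lyz2, Csf3r, Il6ra, S100a8, S100a9, Procr, Itga2b, Cxcr2, Retnlg, Col1a2, Alpl, Hbb-bs, Ctsg, Klf16, Ddit3 and Tmem189, were chosen after their values were seen. The same holds for Ebf1, Ccr2, Ly6c2, F13a1, Ms4a6c, Cpa3, Hdc, Cd5l, Vpreb1 and Igll1. Positions and promoter windows are from RefSeq on GRCm38.p6, the assembly that mm10 names. On either strand, GENCODE M21 places other genes over Cebpa, Cebpb, Cebpd, Cebpg and Gfi1, so these values are uncertain where reads overlap.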

Additional observations from a re-analysis of the deposited data

How the results depend on the processing

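All 8 factors kept the sign of their log2 fold change under each alternative that gave a value. Klf4 gave no value with a filter of CPM above 1 in at least 3 libraries. Under DESeq2, Cebpa, Cebpd and Cebpe passed the threshold with log2 fold changes of 1.28, 1.68 and 2.62, and the others did not. Over all genes, the number higher was 101 with DESeq2, 5 with the replicate block, 1 with the length trend removed and 0 to 4 with a library left out, and the number lower was 68 with DESeq2 and 0 to 13 with a library left out. With the replicate block, which pairs mice by number, Cebpa, Cebpd and Cebpe had 1.26, 1.69 and 2.66, each with an edgeR adjusted p of 0.0750, and no factor passed. The deviations of same-numbered mice correlated at 0.11, 0.34 and 0.06 for mice 1, 2 and 3. Mutant mice 1 and 3 correlated best with WT mice 3 and 1, at 0.13 and 0.28, and mutant mouse 2 with WT mouse 2. Correlations this weak cannot decide whether same-numbered mice were paired, and the labels give only the number.

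With a library left out, the number of factors separated above WT was 5 to 7, and 5 without mutant mouse 1. The share of all genes separated in these settings was not counted, so these numbers have no background beside them. The list median of granulocyte genes was 0.63 to 2.03, of other KLF genes 0.26 to 0.52, of genes bound by PU.1 -0.061 to 0.14, and of the Gfi1 group -0.137 to 0.085. The Gfi1 group median was 0.09 with the length trend removed, and -0.13 on both FPKM scales. The KLF median was 0.20 and 0.22 on log2(FPKM + 1) and log2(FPKM + 0.1). The median of PU.1-bound genes was 0.19 with sex and 0.15 with the length trend removed, and that of competing-fate factors 0.20 with the length trend removed, a setting that moved the median of all genes to 0.09. The median of monocyte and dendritic fate factors was -0.23 without the filter on low counts, which adds Egr2. As shares of summed counts, the differences of Cebpa, Cebpb, Cebpd, Cebpg and Ddit3 in the C/EBP pool were 4.65, 7.02, 6.22, -18.91 and -1.41 percentage points, beside 2.55, 3.87, 4.74, -10.05 and -4.78 by FPKM. The causes were not tested. Counts were low for Klf4, at most 35, and for Cebpe in WT mice, 19 to 46.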

Other observations

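The balance between factors within a library gives 3 further measures that need no scaling between libraries. The per-length ratio of Cebpe to Cebpa was 0.388, 0.688 and 0.393 in mutants 1, 2 and 3, beside 0.105, 0.321 and 0.166 in WT mice, without overlap. The ratio of Gfi1 to Spi1 was 0.15, 0.141 and 0.182 in the mutants, beside 0.184, 0.108 and 0.157 in WT mice, with overlap. The per-length ratio of Cebpb to Cebpg was 4.05, 6.94 and 4.81 in the mutants, beside 2.02, 2.41 and 2.77 in WT mice, without overlap.

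Over the 6 libraries, the genes with the pattern most like Cebpb by Pearson r of log2 CPM were Slco3a1 (0.998), Ms4a3 (0.998) and Elane (0.996). For Cebpe they were Fam46a (0.994), Trem3 (0.994) and Rtn4r (0.993), and for Cebpa Rrs1 (0.990), Slc52a2 (0.987) and Hspbap1 (0.981). The libraries fall into 2 genotypes and share the scaling, and between 181 and 261 genes had r above 0.9 with each of these 3 factors, so the order among them is a description.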
